A study of Homo sapiens with 4 samples.

Results

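The cancer-testis antigen genes on the X chromosome are copied gene families that healthy adults express mainly in the germ cells of the testis. They were taken here by gene symbol: SAGE1 and every row of the MAGEA, MAGEB, MAGEC, GAGE, PAGE, XAGE, SPANX, SSX, CT45A, CT47A and CTAG families, which gave 89 of the 19215 genes in the deposited table. The set was selected on the FPKM levels and the FABP4 calls of these same libraries, which were known when it was put together. Expression was measured by RNA-seq in C28/I2, a human chondrocyte line immortalised with SV40 large T antigen, after 48 h with 25 ng/mL of FABP4 (2 libraries) or with 0.5% DMSO (2 libraries). FABP4 is a fatty acid-binding protein that fat cells secrete. All 4 libraries came from this single unmodified line in medium with serum, and the 2 treatments are compared for differences in transcript level. Whether DMSO was also present with FABP4, and whether the libraries of a group came from separate cultures, is not in the labels, so the spread between them may be technical. Levels are FPKM, a fragment count divided by transcript length and library size, always given as FABP4 replicates 1 and 2 and then DMSO replicates 1 and 2.

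The members differ in what they do. MAGE-A, MAGE-B and MAGE-C proteins bind RING-type ubiquitin ligases and direct them to new substrates, SSX proteins act with Polycomb repressors in chromatin, and SPANX proteins are found in the nucleus of spermatids. In somatic cells the promoters of these genes are silenced largely by DNA methylation, and many tumours and some immortalised lines express them. Most lie on the X chromosome as near-identical copies, so a short read often fits several genes and its assignment to any of them depends on the counting method.

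All 89 members mapped to chromosome X in GENCODE 29 (GRCh38), 88 through their Entrez ID. RefSeq promoter windows of 300 bases, from 250 bases before to 50 after a transcription start on build GRCh38.p14, were available for 62 of the 89. The windows of SPANXA1 and SPANXA2, of MAGEA3 and MAGEA6, of MAGEA2 and MAGEA2B, of MAGEA9 and MAGEA9B, of SSX2 and SSX2B and of XAGE1A and XAGE1B had 0 differing bases over 300. The upstream stretches of 4 members are shown as examples, and no level or fold change was computed from them. SAGE1 has no near copy, MAGEA3 and MAGEA6 are a pair with the same promoter sequence, and GAGE12B had the highest FPKM of the members. Capitals in SAGE1, MAGEA3 and MAGEA6 mark CCGGAA, an ETS-type core searched on both strands, and capitals in GAGE12B mark CG dinucleotides, the sites of DNA methylation. Bases that GENCODE 29 places in an exon are left out. The SAGE1 stretch lies at chrX:135893466-135893715 (plus strand), the MAGEA3 stretch at chrX:152698544-152698735 (plus strand), the MAGEA6 stretch at chrX:152769748-152769939 (minus strand) and the GAGE12B stretch at chrX:49340914-49341163 (plus strand).
SAGE1: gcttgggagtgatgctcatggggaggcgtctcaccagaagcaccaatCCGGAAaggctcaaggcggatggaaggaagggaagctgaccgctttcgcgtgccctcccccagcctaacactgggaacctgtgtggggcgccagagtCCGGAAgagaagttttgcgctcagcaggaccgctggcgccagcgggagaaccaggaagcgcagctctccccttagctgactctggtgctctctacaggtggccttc
MAGEA3: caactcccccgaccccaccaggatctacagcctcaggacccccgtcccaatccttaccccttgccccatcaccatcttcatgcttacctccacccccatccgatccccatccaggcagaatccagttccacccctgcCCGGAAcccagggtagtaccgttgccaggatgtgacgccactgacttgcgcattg
MAGEA6: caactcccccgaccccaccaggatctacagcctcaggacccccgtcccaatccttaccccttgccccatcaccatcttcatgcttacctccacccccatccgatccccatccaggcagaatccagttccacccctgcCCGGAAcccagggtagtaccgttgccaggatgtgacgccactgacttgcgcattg
GAGE12B: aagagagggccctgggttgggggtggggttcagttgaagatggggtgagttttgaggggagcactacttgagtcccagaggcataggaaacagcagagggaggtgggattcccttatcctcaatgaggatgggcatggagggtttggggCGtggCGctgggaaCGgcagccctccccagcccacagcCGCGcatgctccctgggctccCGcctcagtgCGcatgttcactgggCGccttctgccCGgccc

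CCGGAA stood in the windows of 6 of the 62 matched members (9.68%), namely SAGE1, CT45A10, MAGEA3, MAGEA6, MAGEB6 and MAGEB16, and in 20.1% of the 27305 genes of the promoter table. The windows of SAGE1 and CT45A10 overlap and hold the same 2 sites, and those of MAGEA3 and MAGEA6 are identical, so these members are not separate cases. A match is a description of letters and not of a bound site. The GAGE12B stretch held 9 CG dinucleotides. Aligned without gaps, the GAGE12B window differed from that of GAGE12H by 1 of 284 bases and from that of GAGE13 by 0 of 284, while GAGE10 differed at 90 of 283. For each gene the 300-base window with the most CG dinucleotides was taken. The median over genes was 12 in the matched members that were expressed well enough to be tested. It was 6 in the matched members that were not, and 16 over all genes of the table. Near-identical copies were counted as separate genes.

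The 89 genes held a visible part of the summed FPKM of these cells, most of it in GAGE. Their summed FPKM made up 3.58% and 3.02% of the total in the FABP4 libraries and 3.04% and 3.04% in the DMSO libraries. By mean FPKM in DMSO, 5 members stood at 1000 FPKM or above among 71 such genes of the whole table, 11 stood between 100 and 1000, 28 between 10 and 100, and 18 between 1 and 10. Another 15 were above 0 but under 1 FPKM, and 12 were at 0 in both DMSO libraries. Expression was uneven between families, as the plot of levels by family shows.

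**Figure D1:**
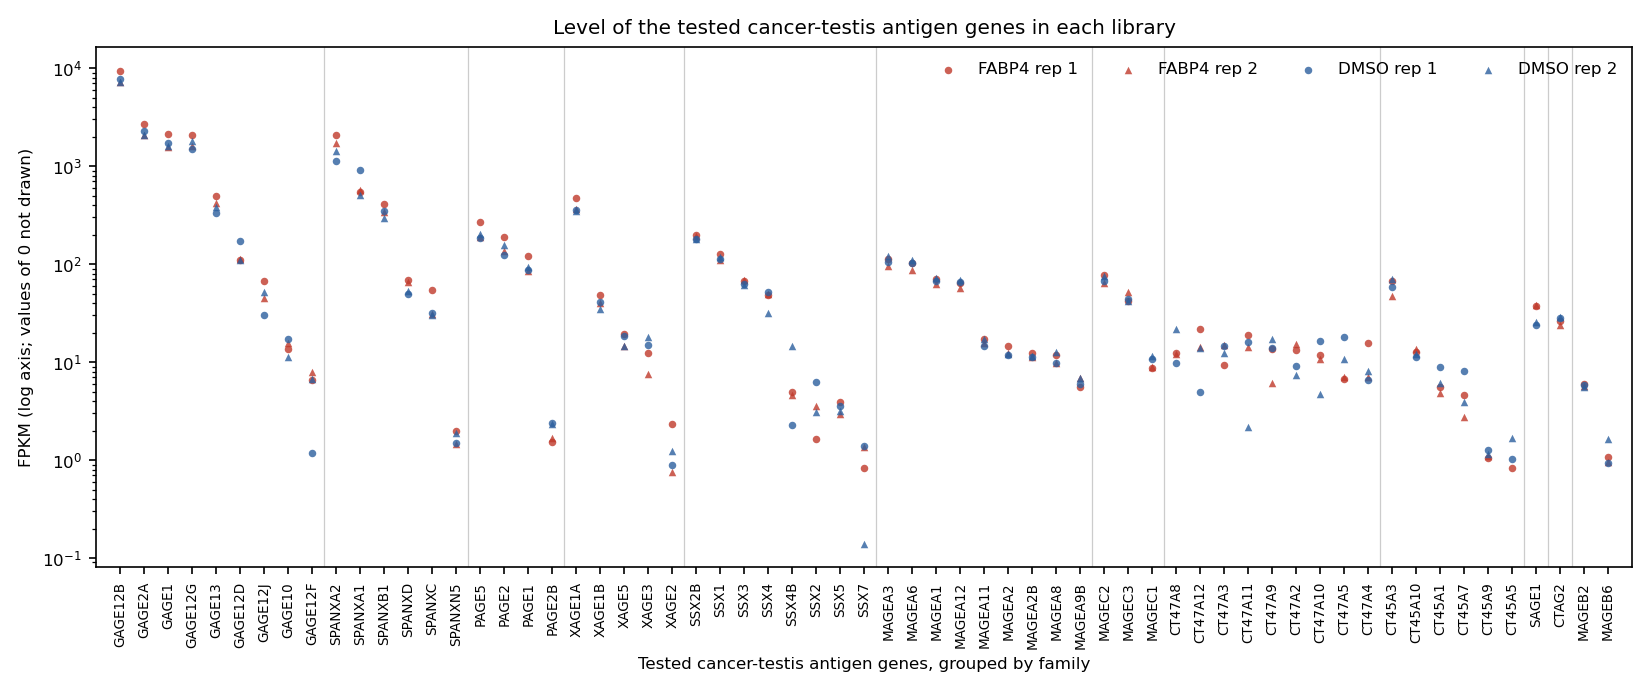
FPKM of each tested cancer-testis antigen gene in the 4 libraries, by family, on a log axis, with values of 0 not drawn. GAGE and SPANX genes hold the highest levels, with GAGE12B between 7239 and 9436 FPKM. The tested MAGEB genes are MAGEB2 at 5.6 to 6.0 FPKM and MAGEB6 at 0.94 to 1.64 FPKM.

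The GAGE, PAGE and XAGE families encode small, related acidic proteins. GAGE12B stood at 9436.48, 7302.16, 7842.01 and 7238.79 FPKM and ranked 4 among all genes by its DMSO mean. Its longest GENCODE 29 transcript has 403 bases, and the fragment length fitted with the depth estimate below was 260 bases. The FPKM of so short a transcript, and with it the rank, depends strongly on the length used. The table's gene ID for GAGE12B is placed by GENCODE 29 at chrX:49341192-49345922 under the name GAGE2E, so the symbol and the locus are uncertain within this cluster. GAGE2A had 2677.74, 2074.44, 2264.56 and 2078.75 FPKM, and GAGE1 and GAGE12G lay between 1494.77 and 2149.32 FPKM. GAGE13 stood between 332.67 and 490.78 FPKM, GAGE12D between 110.05 and 173.04 and GAGE12J between 30.35 and 67.78, whereas GAGE12H was listed at 0 in all 4 libraries. The whole GAGE family summed to 17043.16 and 13172.18 FPKM with FABP4 and 13865.21 and 13286.67 with DMSO, more than all other members together, and FABP4 replicate 1 was the highest of the 4. PAGE5 ranged from 184.47 to 266.97 FPKM, PAGE2 from 123.41 to 187.62 and PAGE1 from 84.17 to 121.55, each with its highest value in FABP4 replicate 1. XAGE1A ranged from 347.47 to 473.66 FPKM and XAGE1B from 34.61 to 48.17, again with the highest value in FABP4 replicate 1.

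The SPANX genes were next in level. SPANXA2 had 2085.33, 1719.46, 1117.73 and 1421.49 FPKM, SPANXA1 547.69, 564.31, 917.56 and 507.14 FPKM, and SPANXB1 between 298.30 and 407.19 FPKM. SPANXD and SPANXC, further members of the SPANXA to SPANXD subgroup, stood between 49.06 and 68.35 FPKM and between 30.33 and 54.44 FPKM. In the SPANXN subgroup SPANXN5 stood at 1.46 to 2.0 FPKM, and SPANXN1, SPANXN3 and SPANXN4 stayed at 0.78 FPKM or less.

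Among the SSX genes, of which SSX1, SSX2 and SSX4 are known as fusion partners of SS18 in synovial sarcoma, all 8 passed the level filter. SSX2B had 196.70, 194.21, 178.35 and 178.39 FPKM and SSX1 125.37, 109.37, 111.74 and 117.35 FPKM. SSX3 stood between 61.62 and 69.04 FPKM and SSX4 between 31.77 and 51.92 FPKM. SSX2 stood at 1.65 to 6.31 FPKM beside its copy SSX2B.

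In the MAGE families, the pair MAGEA3 and MAGEA6 had nearly the same level. MAGEA3 had 111.86, 95.97, 105.75 and 122.17 FPKM and MAGEA6 102.32, 87.99, 101.49 and 108.94 FPKM, and both were lowest in FABP4 replicate 2. MAGEA1, the founding member of the family, stood between 61.94 and 71.42 FPKM and MAGEA12 between 57.14 and 68.66 FPKM. MAGEC2, a partner of the ubiquitin ligase TRIM28, stood between 63.46 and 76.70 FPKM and MAGEC3 at 46.8 ± 6.71 FPKM with FABP4 and 42.8 ± 1.15 FPKM with DMSO (SD, n = 2). MAGEA4, a MAGE-A protein followed as a target in tumours, was at 0.32 FPKM or less. In MAGEB, MAGEB2 had 5.60 to 6.0 FPKM and MAGEB6 0.94 to 1.64 FPKM, and the other 8 members stayed at 0.61 FPKM or less.

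CTAG2, which encodes the antigen LAGE-1, had 26.16, 24.01, 28.47 and 28.74 FPKM. CTAG1A and CTAG1B, the copies that encode NY-ESO-1, were near 0: CTAG1A was listed at 0.32 FPKM in both DMSO libraries and CTAG1B at 0.11 FPKM in both FABP4 libraries, and each was at 0 in the other group. Their transcripts share most of their sequence, and such low values do not show a change of copy between the groups. In the CT45A cluster CT45A3 carried most of the signal, with 66.78, 47.38, 58.04 and 70.25 FPKM, and CT45A10 stood between 11.19 and 13.56 FPKM. The 12 CT47A genes, whose function is not known, summed to 123.70, 101.54, 110.34 and 98.25 FPKM. SAGE1, first described as a sarcoma antigen, was the only gene of its name and had 37.06, 37.82, 23.67 and 25.88 FPKM.

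Of the 89 members, 63 reached 1 FPKM in at least 2 libraries and entered the test, as did 12490 of the 19215 genes. The other 26 comprised 8 listed at 0 in all 4 libraries and 18 that were low, with a highest value of 1.37 FPKM, in CT45A6. Untested members were most frequent in MAGEB (8 of 10), while all SSX, XAGE and MAGEC genes were tested. Along the chromosome, 17 members between 48.2 and 49.8 Mb, with SSX, GAGE and PAGE genes, included 15 tested genes and summed to a mean of 14675 FPKM. The 10 MAGEB members between 16.2 and 35.8 Mb included 2 tested genes.

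Whole-series facts that bear on these values are few. The depth estimated from the FPKM steps of low single-exon genes was about 11325000 to 12750000 fragments per library. The estimate is rough: it used 48 to 57 values per library, which lay on average 0.12 to 0.15 fragments from a whole count. It puts 11.3 to 12.8 fragments behind 1 FPKM of a transcript with 1 effective kilobase, a figure for counting error only. Of 13 chondrocyte markers 3 were tested: SOX9 at 8.81, 9.98, 11.34 and 11.29 FPKM, COL11A2 and ACAN. The cartilage collagen COL2A1 stayed at 0.05 FPKM or less and COL9A1 and CNMD were at 0, so these defining markers of the labelled chondrocyte type were absent or nearly so. Of 14 male germ cell markers 10 were in the table, and none was tested. Their summed level was 1.09 to 1.53 FPKM with FABP4 and 1.11 to 1.46 with DMSO, and DDX4, TNP1 and UTF1 were at 0 in all 4 libraries. Of 12 fibroblast, endothelial, blood and epithelial markers 2 were tested, PDGFRA and CD68. The 12 summed to 151 to 158 FPKM with FABP4 and 152 to 174 with DMSO, nearly all of it CD68, which alone had 152.65, 145.46, 169.19 and 148.24 FPKM, while the 10 untested markers stayed at 0.43 FPKM or less. None of these markers was called by limma or in the authors' deposited table, with COL11A2 and PDGFRA at an unadjusted limma p under 0.05. In bulk RNA, fewer cells of a type and less RNA per cell cannot be told apart.

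How far a single copy can be read depends on the sequence it shares. Each 50-base window of the longest GENCODE 29 transcript of a gene was searched for among the transcripts of every other gene. In CT47A, 96.0% to 100% of the windows stood in another gene as well, and the median was 95.1% in CT45A and 91.4% in GAGE. The longest transcripts of SPANXA1 and SPANXA2 were identical over their whole length, as were those of SSX2 and SSX2B, of SSX4 and SSX4B, and of XAGE1A and XAGE1B. Of the 12 CT47A genes 7 shared 1 sequence: CT47A2, CT47A3, CT47A4, CT47A5, CT47A8, CT47A9 and CT47A10. SAGE1 stood at the other end with 0.792% of its windows shared, and MAGEB and MAGEC genes shared at most 8.37% and 0.379%.

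Copies with identical or nearly identical transcripts carried different values in the table, and some divisions varied between libraries of the same group. SSX4B, identical to SSX4, took 9.30%, 8.45%, 4.17% and 31.6% of the SSX4 and SSX4B sum, with the highest share in DMSO replicate 2. The sum itself was 53.57, 54.08, 54.18 and 46.46 FPKM. CT47A11, which is close to but not among the 7 identical copies, had 18.95, 14.19, 15.92 and 2.19 FPKM, a 7.27-fold difference between the 2 DMSO libraries. Pairs with distinct transcripts could divide evenly. MAGEA6, with 56.6% of its windows shared, took 47.1% to 49.0% of the MAGEA3 and MAGEA6 sum in every library, and MAGEA2B, with 100% of its windows shared, took 46.0% to 48.8% of the MAGEA2 and MAGEA2B sum. MAGEA9B took 100% of its pair and MAGEA9 was at 0, and SSX2 took 0.832% to 3.42% beside the identical SSX2B.

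The spread between libraries of the same group was measured as the absolute log2 ratio of FPKM + 1 between them, a measure that does not use the contrast of FABP4 and DMSO. Over all 12490 tested genes its median was 0.12 with FABP4 and 0.14 with DMSO, and its 90th percentile was 0.31 and 0.32. The 37 tested members with at least 50% of their windows shared had medians of 0.24 and 0.27, and 15 and 16 of them lay above that percentile. The other 26 had medians of 0.26 and 0.14, with 8 and 4 above it. These 26 are not all unique genes. They include GAGE1, with 12.8% of windows shared over a longest transcript of 3129 bases, and SSX7, just under the cut at 47.8%. For the 9 tested CT47A genes the medians were 0.39 and 0.72, while the CT47A sum differed by 0.28 and 0.17. Over the 12 family sums the medians were 0.20 and 0.09, so in DMSO the sums spread less than the copies. In FABP4 the GAGE, PAGE, XAGE and CT45A sums spread by 0.37, 0.49, 0.37 and 0.37, above the 90th percentile of single genes.

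**Figure D2:**
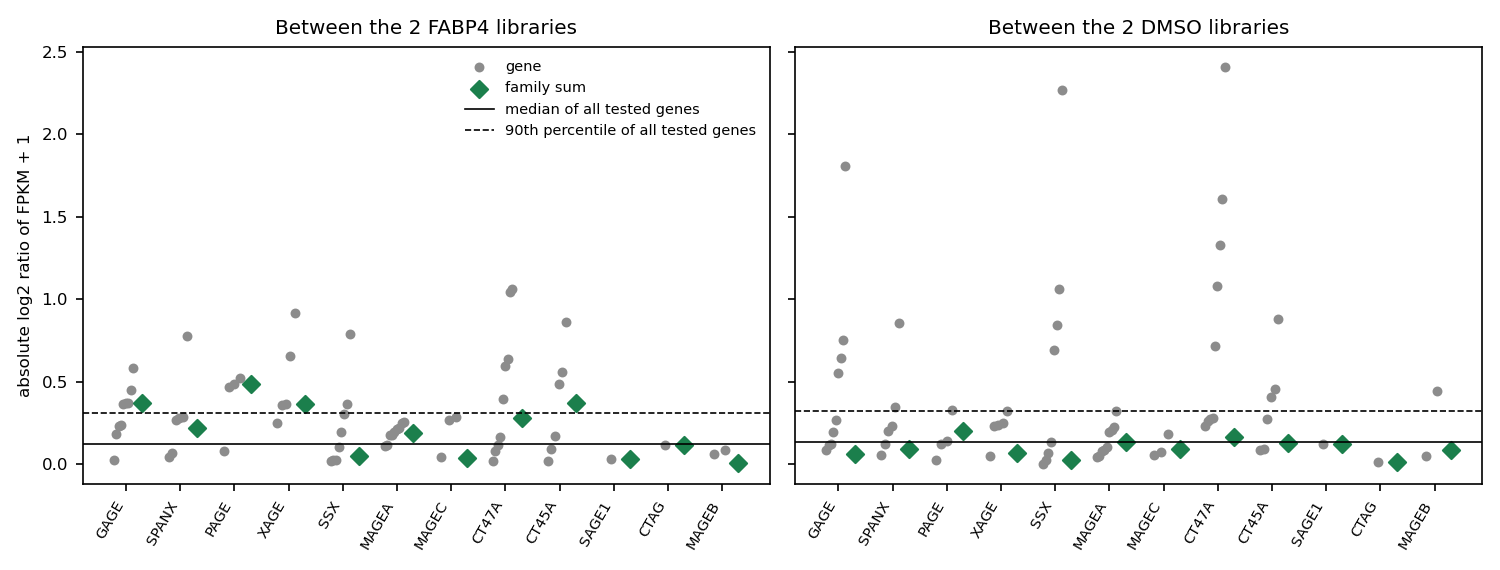
Absolute log2 ratio of FPKM + 1 between the 2 libraries of each group, for the tested members by family and for the family sums. Lines mark the median and the 90th percentile of all tested genes. Single members reach 2.41 in DMSO, while no family sum exceeds 0.20 there.

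The FABP4 contrast was fitted over all 12490 tested genes with limma on log2(FPKM + 1) and Benjamini-Hochberg adjustment at 0.05. Results of this contrast were known when the gene set was put together, so the values of the members are given as a description, without p-values. In the all-gene fit 3 of the 63 tested members were called, SAGE1 and CT47A2 higher and CT47A5 lower with FABP4, beside 0.592% of all tested genes. Log2 fold changes were above 0 in 38 members and below 0 in 25, and 54.0% of all tested genes were above 0. The median was 0.058 over the members and 0.014 over all tested genes. Both FABP4 libraries lay above both DMSO libraries in 11 tested members, where 20.7% of all tested genes did so, and below them in 10, against 16.1%. The number of called members was 10 without FABP4 replicate 1, where 1.2% of all tested genes were called, and 10 without FABP4 replicate 2 (0.785%). Leaving out DMSO replicate 1 gave 7 (0.985%), and leaving out DMSO replicate 2 also gave 7 (0.392%). With FPKM rescaled to equal totals it was 12, where 1.42% of all tested genes were called.

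SAGE1 was the called member with a sequence of its own. Its levels of 37.06 and 37.82 FPKM with FABP4 lay above the 23.67 and 25.88 FPKM with DMSO, and the libraries within each group were close. The means were 37.4 ± 0.537 and 24.8 ± 1.56 FPKM (SD, n = 2), a ratio of 1.51, and the log2 fold change was 0.58 (SE 0.12). In GENCODE 29 the gene spans chrX:135889205-135913061 on the plus strand. The RefSeq start that follows the printed stretch lies inside that span, at position 135893716, and the stretch, with 2 copies of CCGGAA, is intronic there. The call was lost without FABP4 replicate 2, with a log2 fold change of 0.56, without DMSO replicate 1 with 0.52 and without DMSO replicate 2 with 0.64, and also with no filter on low values and in the replicate block fit.

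CT45A10 starts close to SAGE1 on the opposite strand, 119 bases away in GENCODE 29 and 272 bases away for the nearer of 2 RefSeq starts. Its levels were 12.68 and 13.56 FPKM with FABP4 and 11.19 and 12.01 FPKM with DMSO. Both FABP4 libraries were thus the higher ones, but the log2 fold change was 0.16 (SE 0.12) and the gene was not called. The difference between the changes of SAGE1 and CT45A10 was not tested. Of the 6 tested CT45A genes 5 had a log2 fold change below 0, while 54.0% of all tested genes were above 0. None of the 6 was called, beside 0.592% of all tested genes. These copies share most of their sequence, so they are not separate cases. CT45A5, with 0.82, 0.0, 1.03 and 1.69 FPKM, passed the level filter only through the DMSO libraries, so its sign is no finding. CT45A1 had 5.53, 4.79, 8.82 and 6.16 FPKM, with both FABP4 libraries below both DMSO libraries. CT45A3 had a log2 fold change of -0.18 (SE 0.15) and the family sum -0.19 (SE 0.14), both with overlapping groups.

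**Figure D3:**
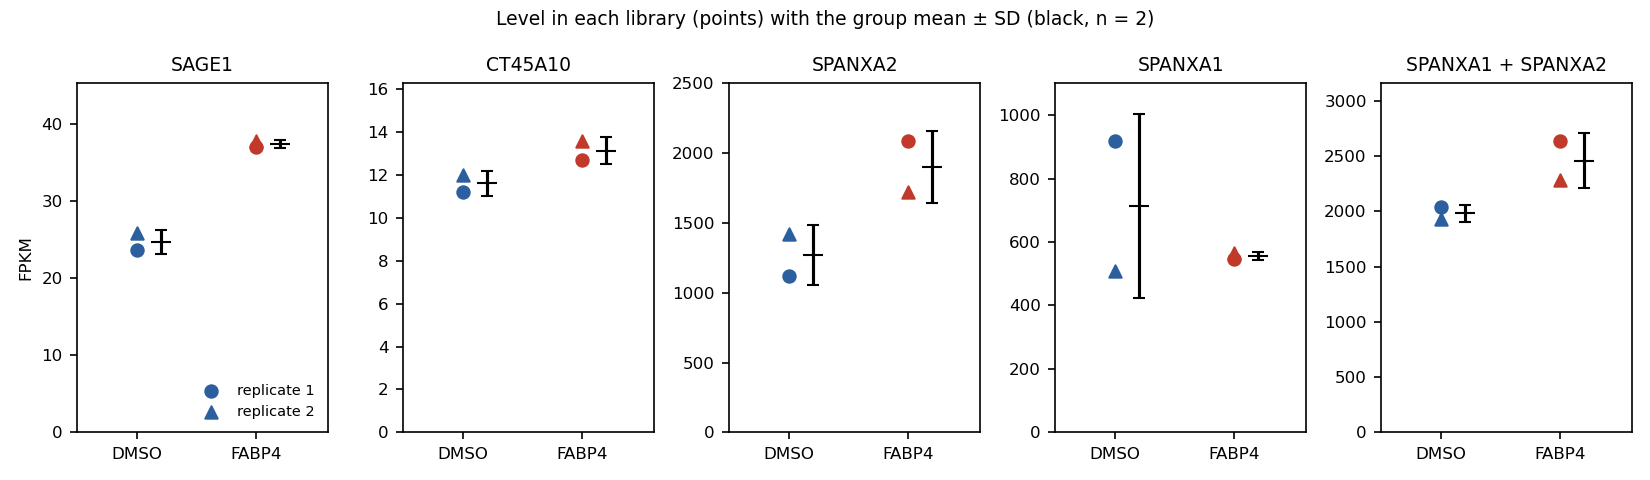
FPKM per library for SAGE1 and CT45A10 and for SPANXA1, SPANXA2 and their sum, with group means. SAGE1 is higher in both FABP4 libraries, and SPANXA1 is highest in DMSO replicate 1, where SPANXA2 is lowest.

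SPANXA1 and SPANXA2, whose longest transcripts are identical, had log2 fold changes of opposite sign. SPANXA2 was higher in both FABP4 libraries, with a log2 fold change of 0.59 (SE 0.19), and it was not called. SPANXA1 had its highest level, 917.56 FPKM, in DMSO replicate 1, the library in which SPANXA2 was lowest at 1117.73 FPKM. Its log2 fold change was -0.29 (SE 0.21), and it turned to 0.13 with DMSO replicate 1 left out. Within the sum of the SPANXA to SPANXD genes, SPANXA2 took 65.9%, 63.3%, 45.3% and 61.5%. The sum of SPANXA1 and SPANXA2 was 2633.02 and 2283.77 FPKM with FABP4 and 2035.29 and 1928.63 FPKM with DMSO. The groups did not overlap, and the ratio of the means was 1.24, with SPANXA2 alone at 1902 ± 259 against 1270 ± 215 FPKM (SD, n = 2). The log2 fold change of the whole SPANX family was 0.30 (SE 0.20), or 0.19 without FABP4 replicate 1, and it was not called.

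The CT47A genes held the largest changes and the largest spread among the tested members. CT47A2 had 13.43 and 15.17 FPKM with FABP4 and 9.17 and 7.42 FPKM with DMSO, a log2 fold change of 0.72 (SE 0.13). CT47A5 had 6.64 and 7.08 FPKM with FABP4 and 18.11 and 10.63 FPKM with DMSO, a log2 fold change of -0.92 (SE 0.17) that moved to -0.57 with DMSO replicate 1 left out and to -1.28 with DMSO replicate 2 left out. These transcripts are identical in GENCODE 29, and their calls had opposite directions. Their sum was 20.07, 22.25, 27.28 and 18.05 FPKM, with overlapping groups and a ratio of the means of 0.934. The 7 identical copies summed to 82.61, 73.14, 88.84 and 82.28 FPKM, also with overlap, and the log2 fold change of the whole family was 0.11 (SE 0.14), or -0.036 without FABP4 replicate 1. The CT47A2 call was lost without DMSO replicate 2 (0.59), and both CT47A calls were lost with no filter on low values.

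**Figure D4:**
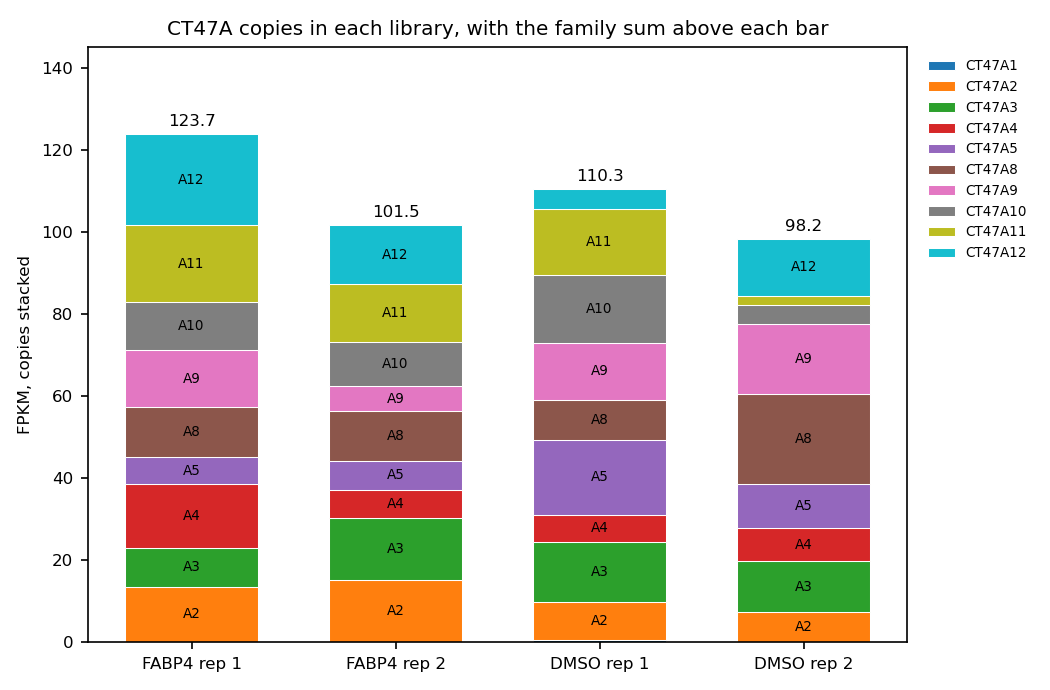
FPKM of the CT47A genes in each library, stacked, with the family sum above each bar. CT47A6 and CT47A7, at 0 in all 4 libraries, are not drawn. The sums lie between 98.25 and 123.70 FPKM while single copies such as CT47A11 and CT47A12 change place between libraries.

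With copies summed by family, 1 of the 12 sums was called, SAGE1, where 0.732% of the 12439 genes and sums in that fit were. None of the 11 tested sums of near-identical copies was called, beside 0.69% of the 12459 genes and sums in that fit. These counts are a description, since the summed genes were selected on the same contrast. Among the family sums, 3 had both FABP4 libraries above both DMSO libraries, SPANX, SSX and SAGE1, and 2 had them below, CTAG and MAGEB, where 20.7% and 16.1% of all tested genes did so. The SSX sum was 449.88 and 434.58 FPKM with FABP4 and 418.25 and 410.20 with DMSO, a log2 fold change of 0.09 (SE 0.15), and that of CTAG was -0.19 (SE 0.12). The MAGEB sum was 7.7 and 7.76 FPKM with FABP4 and 7.79 and 8.32 with DMSO, so the groups were barely apart. Its log2 fold change was -0.05 (SE 0.12), and 8 of its 10 members were untested. The log2 fold changes of the PAGE and XAGE sums were 0.20 (SE 0.17) and 0.20 (SE 0.16), that of GAGE was 0.14 (SE 0.28) and that of MAGEA -0.10 (SE 0.15), each with overlapping groups. Without FABP4 replicate 1 they were -0.045 for PAGE, 0.018 for XAGE and -0.043 for GAGE. Within XAGE 4 tested members had a log2 fold change above 0. XAGE3 had -0.70 (SE 0.17), with 12.44, 7.53, 15.04 and 17.94 FPKM. Only 1.56% of its windows were shared with another gene. XAGE3 was not called in the reported fit, but it was with FPKM rescaled to equal totals. A missing call does not show that a sum stayed the same.

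Of the 89 members 80 had a DESeq2 q-value in the authors' deposited table, and 3 were under 0.05, beside 0.655% of the 18019 genes with a q-value there. These were SPANXA2 with a log2 fold change of 0.69, SAGE1 with 0.51 and CT47A5 with -1.19 in the authors' deposited table. SAGE1 and CT47A5 were thus called in both analyses, CT47A2 by limma alone and SPANXA2 by the authors alone. Both analyses used the same 4 libraries, so a call in both is not independent support. The transcript of CT47A5 is identical to that of CT47A2, and the sum of these 2 overlapped between the groups. For CT47A2 the authors' deposited table gave a log2 fold change of 1.13 and no call.

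Other genes of the same biology were read out of the limma fit as well, where 0.592% of all tested genes were called. Of the 11 type II MAGE genes, which healthy tissues express widely, 9 were tested and 0 were called, with 0 at an unadjusted p under 0.05 and 0 in the authors' deposited table. MAGED1 had 140.56, 145.07, 135.14 and 139.93 FPKM and MAGED2 between 108.00 and 118.90 FPKM. Among 51 further cancer-testis and germline genes of the deposited data, 21 were tested and 0 were called by limma or in the authors' deposited table, with 4 at an unadjusted p under 0.05, where 9.68% of all tested genes were. These were SPA17 and CSAG2 with a log2 fold change above 0 and CT83 and ACTL8 with a value below it. CSAG1, an X-linked antigen gene, had 158.08, 143.67, 125.70 and 135.55 FPKM (limma adjusted p = 0.701), with both FABP4 libraries above both DMSO libraries, and CSAG3 stood between 26.15 and 34.53 FPKM (limma adjusted p = 0.679).

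Of 23 genes of DNA methylation and repression 20 were tested and 0 were called by limma or in the authors' deposited table, with 0 at an unadjusted p under 0.05 in limma. DNMT1, the maintenance methyltransferase, had 47.92, 55.02, 56.93 and 59.74 FPKM, a log2 fold change of -0.18 (SE 0.12, limma adjusted p = 0.744). The deacetylases HDAC1 and HDAC2 stood between 84.78 and 89.88 FPKM and between 54.06 and 65.03 FPKM. Of 13 partner proteins of MAGE antigens 10 were tested and 0 were called, with 0 at an unadjusted p under 0.05 and 0 in the authors' deposited table. TRIM28, the ligase that MAGEA3, MAGEA6 and MAGEC2 bind, had 249.76, 263.66, 263.70 and 223.16 FPKM (limma adjusted p = 0.953), and the phosphatase subunit PPP1CA stood between 107.78 and 121.68 FPKM.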

How the data were processed

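Total RNA of C28/I2 cells was extracted with Trizol, and libraries were made with an in-house kit of the sequencing provider, per the labels. The deposited table holds FPKM per library together with the authors' own comparison, given as a log2 fold change with its DESeq2 p-value and q-value, per the file headers. Bowtie2 2.2.5, RSEM 1.2.12, DESeq2 1.4.5 and build GRCh38.p13 are named without roles, per the submitters' processing notes. The sources used here do not state strandedness, RNA selection, annotation or the treatment of reads that fit several genes.

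The values were taken as log2(FPKM + 1), so the change of low genes is understated, and a gene was tested where 2 or more libraries reached 1 FPKM. The condition was the only term in limma 3.58.1 (R 4.3.3), run two-sided with a variance trend over all genes, and again with the members replaced by 12 family sums or by sums of near-identical copies. The script was tested on simulated data. Levels, shares, spread and shared windows were computed in Python 3.11.15. Sequences are from RefSeq (GRCh38.p14) and coordinates from GENCODE 29 (GRCh38). With 2 libraries against 2, an exact permutation test of a single value cannot go below p = 0.333 and was not used. Alternatives changed the pseudocount, the filter and the scaling, added a replicate block and left out each library.

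The members, gene lists and rules were chosen with earlier results of these data known. Named are the 30 tested members with the highest mean FPKM, and in each other list the called genes or else the 2 with the highest mean. Further members and DNMT1, and the sums of SPANXA1 with SPANXA2, of CT47A2 with CT47A5 and of the 7 identical CT47A copies, were chosen after their values were seen.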

Additional observations from a re-analysis of the deposited data

How the results depend on the processing

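The number of called genes, 74 in the reported fit, was 0 with no filter on low values (1362 at an unadjusted p under 0.05), 178 with FPKM rescaled to equal totals, 47 with the replicate number as a block, and 49 to 150 with single libraries left out. The number of called cancer-testis antigen genes, 3, was 0 with no filter (12 at an unadjusted p under 0.05), 12 with equal totals (6 higher and 6 lower) and 7 to 10 with single libraries left out. The cause was not tested. SAGE1 kept a log2 fold change of 0.58 but lost its call with no filter and with the replicate block, both as a gene and as a family sum, and ranged from 0.52 to 0.64 with single libraries left out. In the latter fits an arm with 1 library is assumed to vary like the other group. Without DMSO replicate 1 SPANXA1 turned from -0.29 to 0.13 (-0.72 to 0.13 with single libraries left out), and without DMSO replicate 2 SSX4 turned from 0.26 to -0.081 (-0.081 to 0.61). The call of SPANXA2 appeared with equal totals (0.54) and without FABP4 replicate 2 (0.73). Among the family sums MAGEC, near 0 in the reported fit, changed sign to -0.042 with equal totals and to -0.014 with median-of-ratios scaling. With single libraries left out, the sign changed in 5 of 48 values of the family sums, namely GAGE (-0.043), PAGE (-0.045) and CT47A (-0.036) without FABP4 replicate 1, and MAGEC without FABP4 replicate 1 (-0.016) and without DMSO replicate 1 (-0.043), and in 17 of 128 values of single members. None of the other 11 family sums, and none of the 11 tested sums of near-identical copies, was called under any of the 10 alternatives. The replicate numbers are not stated to pair the libraries, and same-numbered libraries deviated from their group means with a correlation over genes of -0.119. With that block 2 members were called, CT47A2 and CT47A5, where 0.376% of all tested genes were called. Each group has 2 libraries, so small changes of the sums could not be resolved.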
